A study of Solanum lycopersicum with 2 samples.

Results

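Heat shock transcription factors (HSFs) were compared between red ripe tomatoes of wild type plants and of an overexpression line for ALMT9, a gene of the aluminium-activated malate transporter family. Samples of the latter are called ALMT9 fruit below. The group holds 4 genes of the 34725 identifiers in the deposited table, chosen by name and locus: HSFA1 (Solyc08g005170), HSFA2 (Solyc08g062960), HSFA3 (Solyc09g009100) and HSFB1 (Solyc02g090820). All 4 were present in the table. The table gives RPKM, that is, reads of a gene normalised by the length of its model and by the reads of the library, so levels can be compared between genes.

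Plants of both genotypes were grown as in commercial cultivation at 28 °C by day and 20 °C by night, and the labels name no heat treatment. For each genotype 3 plants gave fruit, picked 49 days past flowering, and a single library stands for each. Whether fruit of these plants was pooled, and which promoter drives ALMT9, is not stated in the labels. With 1 library per genotype there is no replicate check and no p-value. Every difference below describes these 2 libraries, and intervals cover counting error only, not the spread between fruits or plants.

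HSFs are the proteins that switch on heat shock genes. They bind short repeated elements in the promoters of genes for heat shock proteins (HSPs), the chaperones that keep other proteins folded. In tomato, HSFA1 is known as the master factor that is present before stress and starts the response. HSFA2 is made during heat stress, accumulates, and acts together with HSFA1. HSFB1 belongs to a class without the activation motif of class A and is known in tomato as a partner of HSFA1 and as a repressor. HSFA3 is known from Arabidopsis as a factor that acts after the drought and heat regulator DREB2A.

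Names and loci were joined as given with the choice of genes, since no identifier of the table matched the 41476 genes of the RefSeq reference table for tomato (SLM_r2.1). That table holds HSFA3 on chromosome 9, HsfB1 as another name of HSTF24 on chromosome 2, and HSFA1A on chromosome 8. Those chromosomes are the ones numbered in the identifiers of HSFA3, HSFB1 and HSFA1. No entry began with the name HSFA2, whose identifier is numbered on chromosome 8.

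Read numbers recovered from the RPKM values gave library totals of 19736832 reads in wild type fruit and 19252026 reads in ALMT9 fruit. The locus entered for ALMT9, Solyc06g072910, was at 0.0742 RPKM in wild type fruit and 20.5 RPKM in ALMT9 fruit, from at least 1 and 270 reads, which is the direction of the label. Of 10 loci entered as ripe fruit genes, all lay between 41.3 and 3979 RPKM in wild type fruit and between 21.4 and 2363 RPKM in ALMT9 fruit. On the log2(RPKM + 1) scale 2 of the 10 were at least 2-fold higher in ALMT9 fruit and none was at least 2-fold lower. These 2 went from 305 to 992.5 RPKM and from 648 to 2363 RPKM. Over all genes averaging 1 RPKM or more, 8.09% were at least 2-fold higher and 4.3% at least 2-fold lower. Among 9 loci entered for green tissue, 2 were at 0 in both libraries and the highest stood at 13.8 RPKM in wild type fruit and 18.8 RPKM in ALMT9 fruit. The 9 seed loci differed more and are given beside HSFA2.

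HSFA2 was 10.1-fold lower in ALMT9 fruit than in wild type fruit, HSFA3 was 2.33-fold lower, HSFB1 was 1.7-fold lower and HSFA1 was at 1.1 times its wild type level. Thus 3 of the 4 factors were lower, 2 of them by at least 2-fold on the log2(RPKM + 1) scale, and none was at least 2-fold higher. As a background, 17287 genes averaged 1 RPKM or more over the libraries and are called expressed here. Of these, 4.3% were at least 2-fold lower and 8.09% at least 2-fold higher on the same scale. The median log2 ratio of the 4 factors was -0.94, against 0.016 over all expressed genes.

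**Figure D1:**
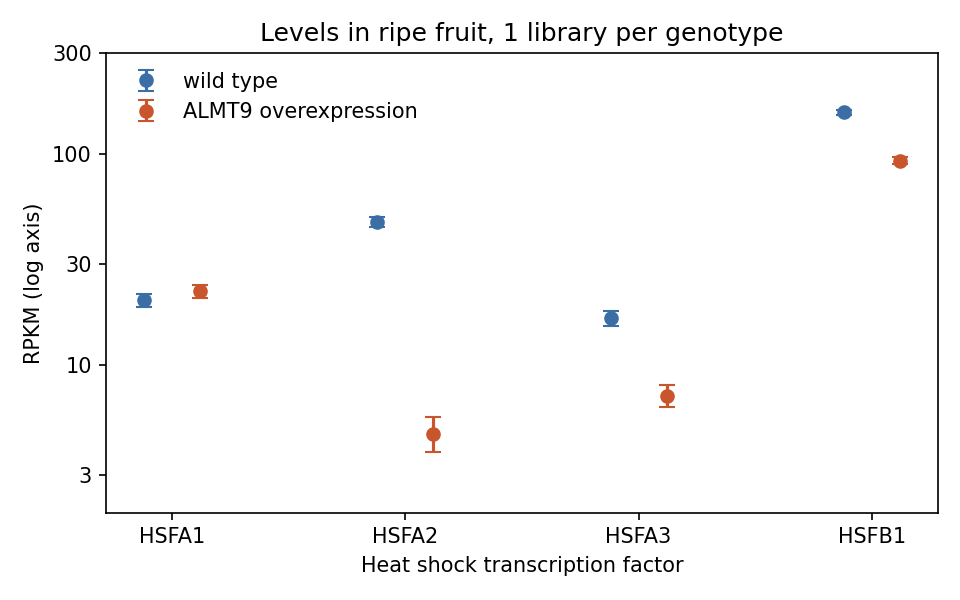
RPKM (log axis) of the 4 heat shock transcription factors in wild type and ALMT9 fruit. Points are single libraries and bars are exact Poisson 95% counting intervals; those of HSFA2, HSFA3 and HSFB1 stand apart between libraries, while those of HSFA1 overlap at the smallest read numbers that the values allow.

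HSFA1, the factor that starts the response, was at 20.3 RPKM in wild type fruit and 22.3 RPKM in ALMT9 fruit. HSFA1 stands here for Solyc08g005170 alone. Whether other HSF loci are also of the HSFA1 type could not be checked. The levels of this locus rest on at least 781 and 838 reads, the smallest whole numbers that the RPKM values allow. The RPKM ratio of overexpression to wild type was 1.1, with an exact (Clopper-Pearson) 95% counting interval that includes 1. At these read numbers a difference of HSFA1 was not detectable beyond counting error, and the interval allows a level from 0.997 to 1.21 times that of wild type fruit. Since the lower bound is this close to 1 and the read numbers are minima, true numbers 2 times as large (an alternative chosen after seeing the data) would give an interval of 1.03 to 1.18, above 1. On the log2((overexpression + 1)/(wild type + 1)) scale, used for all log2 ratios here, its value was 0.13, and 40.9% of expressed genes had a higher one.

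HSFA2, the factor that accumulates under heat, was at 47.5 RPKM in wild type fruit and 4.7 RPKM in ALMT9 fruit. Read numbers were at least 1181 in wild type fruit and at least 114 in ALMT9 fruit. Its RPKM ratio of 0.099 had counting bounds of 0.0809 and 0.12, which is a level 8.33 to 12.4 times lower. Its log2 ratio was -3.09, with 20 of the 17287 expressed genes below it, or 0.116%. By level, HSFA2 stood at percentile 90.5 of all identifiers in wild type fruit and at percentile 62.5 in ALMT9 fruit.

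Seed loci were also lower in ALMT9 fruit, all 9 of 9 entered for storage globulins and oleosins and 8 of them by at least 2-fold. The share at least 2-fold lower over all expressed genes was 4.3%. Counting intervals of the RPKM ratio lay below 1 for 8 of the 9 and across 1 for 1. How many of all expressed genes have an interval apart from 1 was not counted, so this tally lacks a background. All 10 ripe fruit loci had such an interval, 6 below 1 and 4 above 1. The seed loci had a median log2 ratio of -2.5 and a summed level of 273 RPKM in wild type fruit and 45.1 RPKM in ALMT9 fruit. Single seed loci ranged from 4.39 to 57.1 RPKM in wild type fruit and from 0.58 to 18.3 RPKM in ALMT9 fruit, so none was at 0. In whole fruit, fewer cells of a type and less RNA per cell cannot be told apart. The part of seed RNA in the HSFA2 difference was not tested.

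HSFA3 was at 16.6 RPKM in wild type fruit and 7.13 RPKM in ALMT9 fruit, from at least 643 and 269 reads. Its RPKM ratio of 0.429 had counting bounds of 0.371 and 0.495. On the log2 scale its value was -1.12, with an interval of -1.3 to -0.93, so the 2-fold mark lay within counting error on that scale. With a pseudocount of 5 in place of 1 the value was -0.83, short of 2-fold. Of the expressed genes, 3.18% had a lower log2 ratio.

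HSFB1, the class B partner of HSFA1, was the most abundant of the 4 in both libraries. It was at 157 RPKM in wild type fruit and 92.6 RPKM in ALMT9 fruit, from at least 4990 and 2871 reads. Its RPKM ratio of 0.59 had counting bounds of 0.563 and 0.618, and the log2 ratio was -0.76. The difference exceeded counting error but stayed within 2-fold, and 8.02% of expressed genes had a lower log2 ratio.

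**Figure D2:**
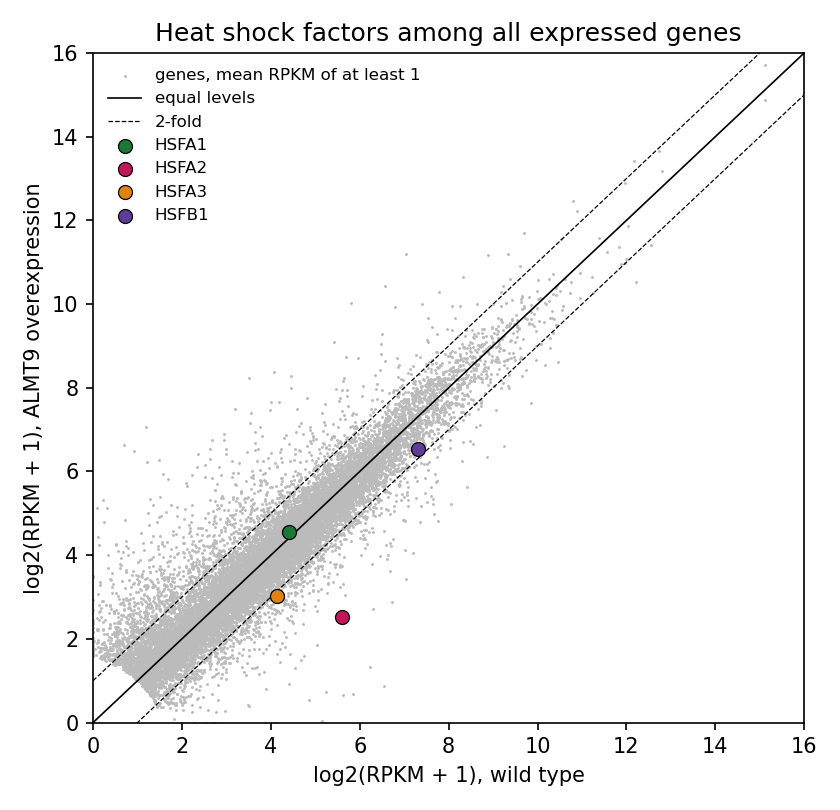
Log2(RPKM + 1) of the 17287 expressed genes in wild type fruit (x axis) and ALMT9 fruit (y axis), with the 4 factors as large points and dashed lines at 2-fold. HSFA1 sits close to the line of equal levels, and HSFB1 lies below it but within 2-fold. HSFA3 lies just below the lower 2-fold line at a log2 ratio of -1.12, and HSFA2 far below it at -3.09.

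HSFA2 took a different place in the order of the factors in each library, while the other 3 kept theirs relative to each other. In wild type fruit the order by RPKM was HSFB1, HSFA2, HSFA1 and HSFA3. In ALMT9 fruit it was HSFB1, HSFA1, HSFA3 and HSFA2. Poisson 95% intervals of neighbours in each order did not overlap, the closest being HSFA2 (3.88 to 5.65 RPKM) and HSFA3 (6.31 to 8.04 RPKM) in ALMT9 fruit and HSFA3 (15.4 to 18.0 RPKM) and HSFA1 (18.9 to 21.8 RPKM) in wild type fruit.

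Levels were set against the 1 locus taken as HSFA1, the partner of HSFA2 in the heat response. HSFA2 stood at 2.34 times the HSFA1 level in wild type fruit and at 0.211 times that level in ALMT9 fruit. HSFB1 stood at 7.73 and 4.15 times the HSFA1 level, and HSFA3 at 0.819 and 0.319 times. The summed RPKM of the 4 factors was 241 in wild type fruit and 127 in ALMT9 fruit. HSFB1 made up 65.0% and 73.0% of that sum, HSFA2 19.7% and 3.71%, HSFA1 8.41% and 17.6%, and HSFA3 6.89% and 5.63%.

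Another 22 loci were entered for the HSF family, and 11 of the 13 expressed in ripe fruit were within 2-fold between the libraries. Most expressed genes were also within 2-fold, with 8.09% at least 2-fold higher and 4.3% at least 2-fold lower. The count of 11 therefore does not set these loci apart. The HSF list and all other lists, also those of ripe fruit, green tissue and seed loci, were entered from locus assignments recalled for tomato. They, like the locus entered for ALMT9, could not be checked against a table. Earlier results of these data were known when the lists were entered. Of the 22 loci, 13 were expressed (a mean of 1 RPKM or more), 2 were at 0 in both libraries and the other 7 were below 1 RPKM in each library. Among the 13, 8 were below 0 and 5 above 0 on the log2 scale. Their median was -0.36, against 0.016 over all expressed genes, whose share below 0 was not counted. None of the 13 was at least 2-fold lower, the lowest log2 ratio being -0.77. Counting intervals of the RPKM ratio lay below 1 for 8 loci, above 1 for 3 and across 1 for 2, again without a share over all expressed genes.

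At least 2-fold higher were 2 of these HSF loci. Solyc04g016000 went from 1.42 RPKM in wild type fruit to 39.3 RPKM in ALMT9 fruit, a log2 ratio of 4.06, with at least 37 reads in wild type fruit. The counting interval of its RPKM ratio was 19.9 to 39.5. The other, Solyc07g055710, named after its value was seen, went from 3.43 to 13.9 RPKM, a log2 ratio of 1.75 with an interval of the RPKM ratio of 3.24 to 5.08. The most abundant HSF locus in both libraries, entered as a family member, was at 178 RPKM in wild type fruit and 138 RPKM in ALMT9 fruit.

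Among all 26 HSF loci, HSFA2 ranked 7 by RPKM in wild type fruit and 16 in ALMT9 fruit. HSFB1 ranked 2 and HSFA1 ranked 10 in both, and HSFA3 went from rank 11 to 15. The summed RPKM of the 26 loci was 855 in wild type fruit and 635 in ALMT9 fruit, of which the 4 named factors made up 28.2% and 20.0%.

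Loci entered for HSPs, the known targets of HSFs, held members at least 2-fold lower, members within 2-fold and members at least 2-fold higher. Of 14 loci entered for small HSPs and the disaggregase HSP101, 13 were expressed, with a median log2 ratio of -0.84. Of these 13, 6 were at least 2-fold lower and 1 was at least 2-fold higher, beside 4.3% and 8.09% of all expressed genes. Counting intervals of the RPKM ratio lay below 1 for 11 of the 13 and above 1 for 2. The share of all expressed genes with such intervals was not counted, so this tally alone does not set the list apart. Small HSP genes include near-identical copies, and how their shared reads were counted is not stated, so levels of single copies are uncertain. The HSP101 locus, Solyc03g115230, was at 145 RPKM in wild type fruit and 15.5 RPKM in ALMT9 fruit. Its log2 ratio was -3.14, beside -3.09 for HSFA2, and it is named here outside the rule for naming genes. The lowest log2 ratio of the list was -3.61. In contrast, the most abundant small HSP locus of ALMT9 fruit was at 891 RPKM in wild type fruit and 1156 RPKM in ALMT9 fruit. The most abundant one of wild type fruit went from 917 to 198 RPKM, a log2 ratio of -2.21.

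The chaperones HSP90 and HSP70 hold client proteins and also bind and restrain HSFs in unstressed cells. Over all expressed genes, 4.3% were at least 2-fold lower and 8.09% at least 2-fold higher. Of 4 loci entered for HSP90, 2 were at least 2-fold lower and none was at least 2-fold higher, with a median log2 ratio of -1.49. Solyc03g007890 went from 77.3 RPKM in wild type fruit to 5.51 RPKM in ALMT9 fruit, a log2 ratio of -3.59, and the other lower locus went from 25.3 to 4.16 RPKM. The most abundant HSP90 locus was at 641 and 415 RPKM, and the remaining 1 was at 87.4 and 94.4 RPKM.

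Loci entered for HSP70 went both ways. Of 6, 2 were at least 2-fold lower in ALMT9 fruit, 1 going from 95.8 to 17.8 RPKM and the other from 211 to 53.6 RPKM. Another 2 were at least 2-fold higher, 1 going from 5.97 to 13.6 RPKM and the other from 38.3 to 82.2 RPKM. The shares over all expressed genes were 4.3% at least 2-fold lower and 8.09% at least 2-fold higher. The most abundant HSP70 locus was at 342 and 391 RPKM, and the median log2 ratio of the list was 0.18. The loci entered for MBF1c and DREB2, regulators that in Arabidopsis act in the heat response beside or before HSFs, were both lower, by less than 2-fold on the log2(RPKM + 1) scale (-0.99 and -0.57). The first was at 32.8 and 16.1 RPKM and the second at 7.52 and 4.72 RPKM in wild type and ALMT9 fruit, so the plain RPKM ratio of the first was just past 2-fold.

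**Figure D3:**
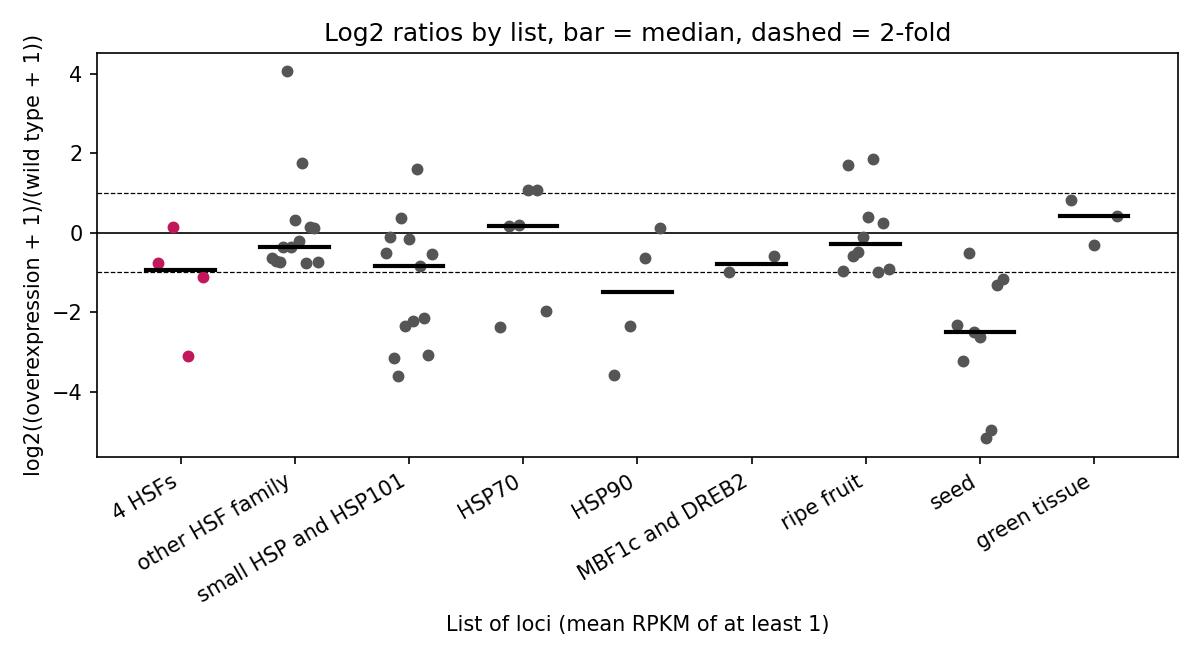
Log2 ratio of overexpression to wild type (RPKM + 1) for single expressed loci, grouped by list, with bars at list medians and dashed lines at 2-fold. The 4 factors run from -3.09 (HSFA2) to 0.13 (HSFA1), the other HSF loci have a median of -0.36, and the seed loci have the lowest median of the lists shown, -2.5.

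Loci next to the factors did not share the low value of HSFA2. Neighbours were taken as the 5 loci before and the 5 after each factor in the number order of the identifiers, among expressed genes only. Around HSFA2 the 10 neighbours had a median log2 ratio of 0.24 and ran from -0.15 to 1.2, with none at least 2-fold lower. The nearest of them went from 84.5 to 112 RPKM before it and from 6.69 to 7.83 RPKM after it. Around HSFA3 the median was 0.04 and the values ran from -0.31 to 2.44, with 1 neighbour at least 2-fold higher. Around HSFA1 the median was 0.1 and the values ran from -1.01 to 0.72, the lowest being the locus right before it, at 13.8 and 6.36 RPKM. HSFB1 had neighbours with a median of -0.14 that ran from -0.7 to 0.01, and the next locus after it went from 431.5 to 281 RPKM, a log2 ratio of -0.62 beside -0.76 for HSFB1. Reads of overlapping or antisense gene models could not be told apart, since the strand setting is not stated.

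**Figure D4:**
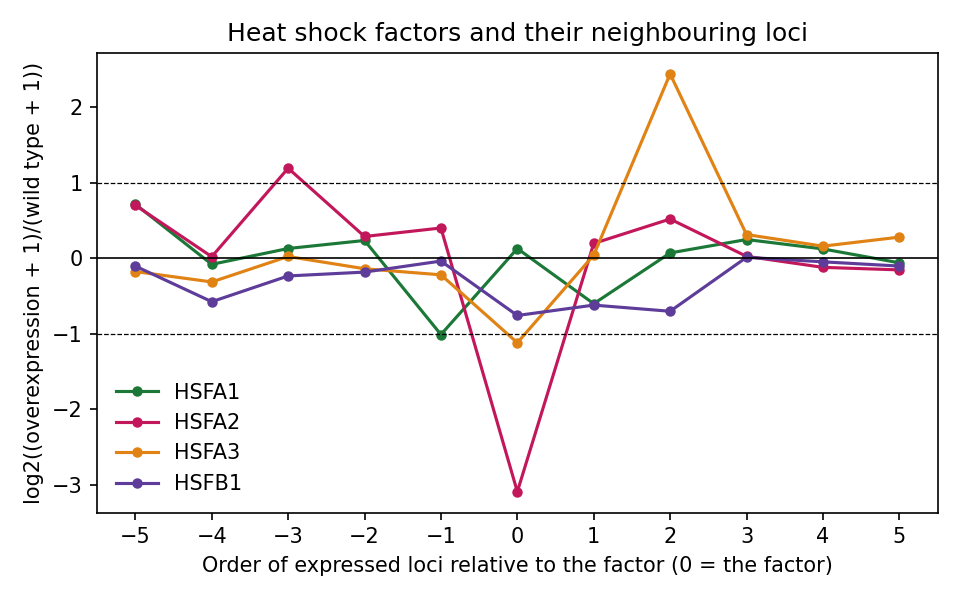
Log2 ratio of overexpression to wild type (RPKM + 1) for each factor (position 0) and the 5 expressed loci before and after it in identifier order. HSFA2 stands alone at -3.09 among neighbours between -0.15 and 1.2, and HSFB1 at -0.76 has neighbours between -0.7 and 0.01.

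Genes with the most similar pair of levels were found by the Euclidean distance of the log2(RPKM + 1) values over the 2 libraries. For HSFA2 no other gene lay within a distance of 0.25. The nearest, at 0.548, was Solyc06g060840.1, with 50.2 RPKM in wild type fruit and 7.31 RPKM in ALMT9 fruit, which is 1 of the 9 loci entered for seed genes. HSFA1 had 504 genes within 0.25, the nearest being Solyc08g082230.2 at 20.3 and 22.4 RPKM. HSFA3 had 52, the nearest being Solyc07g047770.2 at 16.8 and 7.09 RPKM, and HSFB1 had 51, the nearest being Solyc06g084540.2 at 157 and 87.7 RPKM. Likeness over 2 libraries describes these levels only.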

How the data were processed

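Total RNA of ripe fruit was sequenced on an Illumina platform, 1 library per genotype. The authors deposited RPKM values per gene identifier. TopHat, which aligns reads across splice sites, is named without a version in the submitters' processing notes. The sources used here do not state the counting tool, genome build, annotation or strand setting. Columns were matched to samples by title and grouped by genotype label.

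Library totals were taken as the largest at which lengths of most of 400 trial genes, whose models hold UTRs, came out whole (89.5%; the share was 42.8% for totals 2 times and 32.0% for totals 3 times as large). The shortest length of at least 60 bp giving whole reads in both libraries set the read numbers, which are therefore minima, and true numbers may be multiples of them. It was found for 24426 of 24429 genes above 0. Ratio intervals are exact binomial, level intervals exact Poisson, both at 95%. PCR copies are not independent molecules. The recovery and the 2-fold rule were tested on simulated data. That simulation held counting noise only and changes well past 2-fold in well-covered genes, so values near 2-fold were not tested.

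Differences are log2((overexpression + 1)/(wild type + 1)). The pseudocount of 1 makes ratios of low genes too small. Genes averaging 1 RPKM or more were counted at 2-fold, with no test. Members and lists were chosen with earlier results of these data known. Named genes are, by rule, the members, the nearest gene to each by level, and the highest, lowest or most abundant of a list. To keep unchecked identifiers few, some of these are given by value only. The ALMT9 locus, the HSP101 locus and Solyc07g055710 were named outside this rule. Alternatives covered the pseudocount, scaling, the filter and the threshold. No sequence of the factors was used here. Calculations used Python 3.11.15, numpy 2.4.6, scipy 1.17.1 and pandas 2.3.3.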

Additional observations from a re-analysis of the deposited data

How the results depend on the processing

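Log2 ratios of the 4 factors kept their direction under 3 other pseudocounts and 5 scalings. HSFA1 stayed within its counting interval (at the smallest read numbers) in all 8, from 0.05 to 0.14. With a pseudocount of 5, HSFA2 was -2.44, HSFA3 was -0.83, the HSP90 median was -1.18 (-1.6 with a pseudocount of 0.1), the seed median was -1.6, and 667 genes were at least 2-fold higher and 342 lower, against 1398 and 744. Scaling to equal sums gave -0.84 for HSFB1 and -0.38 for the ripe fruit median (-0.29 as deposited), which was -0.35 without the 100 highest genes, and -0.33 with the median ratio and the trimmed mean. Without a filter the median of the other HSF loci was -0.16 and that of green tissue loci, 0.42 with the filter, was 0.004. Requiring a mean of 5 RPKM left 860 genes higher. At 1.5-fold 2819 genes were higher and 2163 lower, and at 4-fold 341 and 94. No paired analysis was possible because neither group has a second library, which also leaves no replicate to omit. Depth limits HSFA2 least in the wild type (1181 reads) and most in the overexpression library (114 reads).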
